A study of Mus musculus with 14 samples.

Results

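The 10 genes described here, Col1a1, Col1a2, Col3a1, Dcn, Lum, Igf2, Ptgds, Slc6a13, Slc13a4 and Aldh1a2, are genes of meningeal fibroblasts and of the matrix these cells lay down. They were chosen by name, each as the single row of the gene table whose Ensembl identifier carries that symbol in GENCODE M21, and they are 10 of the 55536 Ensembl genes in the table and 10 of the 38070 that had enough counts to be tested. Bulk RNA-seq of the hippocampus was made from 14 mice aged 10 months, each giving a single library of poly(A) RNA. The 4 MRL mice carried the lpr mutation of Fas on a C57BL/6 background (B6.MRL-Faslpr), and the 4 MRL-IRAK4-KD mice carried the same mutation together with a kinase-dead form of IRAK4. By their labels, the 3 IRAK4-KD mice carried the kinase-dead IRAK4 without lpr and the 3 C57BL/6 mice carried neither mutation, but the library labelled IRAK4-KD 3 had the Fas transcripts of the lpr groups. All 4 groups thus shared the C57BL/6 background, the IRAK4 mutation was present in every cell of the animal and not in a chosen cell type, and all mice were perfused with cold PBS before the hippocampus was dissected. The paper states that the C57BL/6 mice were purchased, while the other lines were obtained from another investigator. Source and genotype thus cannot be told apart in comparisons with C57BL/6 mice.

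The meninges are the membranes that cover the brain, and their fibroblasts secrete the collagens and small proteoglycans that give these membranes strength. Meningeal fibroblasts also make insulin-like growth factor 2, retinoic acid and prostaglandin D2, and they carry transporters that sit at the border between cerebrospinal fluid, blood and brain. The hippocampus itself holds few such cells, which lie on its surface, in the fissure and around penetrating vessels. In a bulk sample, fewer fibroblasts and less of a transcript per fibroblast cannot be told apart.

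The 3 fibrillar collagen genes encode the chains of type I and type III collagen, which build the fibres of the membranes. On mm10, in the coordinates of GENCODE M21, Col1a1 (ENSMUSG00000001506.10) lies at chr11:94936224-94953042, Col1a2 (ENSMUSG00000029661.16) at chr6:4504814-4541544 and Col3a1 (ENSMUSG00000026043.18) at chr1:45311538-45349706, all on the plus strand. Dcn (decorin) and Lum (lumican) are small leucine-rich proteoglycans that bind collagen fibrils. They lie near each other on the plus strand, Dcn (ENSMUSG00000019929.16) at chr10:97479609-97518143 and Lum (ENSMUSG00000036446.5) at chr10:97565128-97572703. Igf2 (ENSMUSG00000048583.16, chr7:142650766-142666816, minus strand) is a secreted growth factor expressed by the meninges and the choroid plexus. Ptgds (ENSMUSG00000015090.13, chr2:25466709-25470046, minus strand) makes prostaglandin D2 and is also secreted into the cerebrospinal fluid. Aldh1a2 (ENSMUSG00000013584.5, chr9:71215789-71296243, plus strand) makes retinoic acid from retinaldehyde. Slc6a13 (ENSMUSG00000030108.14, chr6:121300227-121337733, plus strand) takes up GABA and taurine, and Slc13a4 (ENSMUSG00000029843.4, chr6:35267957-35308131, minus strand) takes up sulfate. All 10 are protein-coding genes, and each value given sums the exons of the whole gene.

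The promoters of 3 members are shown because the start site of the RefSeq gene model there is the first base of the transcript that took most of the gene's counts, so that the letters precede the transcript measured. Of the 10 members, 7 had an entry among the RefSeq promoters of GRCm38.p6, and Col1a1, Dcn and Lum did not. Each sequence is the 250 bases before the start site, 5′ to 3′ on the strand of the gene. The Col3a1 window is chr1:45311288-45311537 (plus strand), the Igf2 window chr7:142657497-142657746 (minus strand, before Igf2-201) and the Aldh1a2 window chr9:71215539-71215788 (plus strand). Capitals mark a CCAAT box, a TATAAA box or a GGGCGG box on either strand, and none of the marked letters belonged to more than 1 motif.
Col3a1: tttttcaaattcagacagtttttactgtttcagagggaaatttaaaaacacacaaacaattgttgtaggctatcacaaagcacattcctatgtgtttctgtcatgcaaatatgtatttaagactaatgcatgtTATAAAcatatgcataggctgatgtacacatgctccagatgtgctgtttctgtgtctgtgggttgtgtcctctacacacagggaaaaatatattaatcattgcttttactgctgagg
Igf2: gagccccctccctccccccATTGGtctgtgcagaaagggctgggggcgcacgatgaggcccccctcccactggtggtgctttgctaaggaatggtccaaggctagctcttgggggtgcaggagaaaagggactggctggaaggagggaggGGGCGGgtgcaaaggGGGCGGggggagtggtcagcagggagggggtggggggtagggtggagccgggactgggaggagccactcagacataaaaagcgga
Aldh1a2: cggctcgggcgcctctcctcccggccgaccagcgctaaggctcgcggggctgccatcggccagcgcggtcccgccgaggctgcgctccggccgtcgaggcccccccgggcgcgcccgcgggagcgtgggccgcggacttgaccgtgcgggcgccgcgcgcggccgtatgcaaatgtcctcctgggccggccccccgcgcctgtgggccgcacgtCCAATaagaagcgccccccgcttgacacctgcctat
Each of the 3 windows held a different set of these motifs. The Col3a1 window, with 35.2% G and C, held 1 TATAAA box that began 117 bases before the start site. The Igf2 window, with 66.0% G and C, held a CCAAT box on the reverse strand that began 231 bases before the start site and 2 GGGCGG boxes at 100 and 85 bases. The Aldh1a2 window, with 77.6% G and C, held 1 CCAAT box that began 36 bases before the start site. A CCAAT box stood in 33.8% of the 32851 windows of this length in the table, a TATAAA box in 12.4% and a GGGCGG box in 32.7%, so none of the motifs was rare.

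Total counts ranged from 279941472 to 572398312 per library, and the smallest count of any member in any library was 497, for Col3a1. As a check of the labels, the full-length Fas transcript had 0 counts in the 8 lpr libraries and 345 to 584 in the C57BL/6 libraries, but it also had 0 counts in the library labelled IRAK4-KD 3, against 360 and 386 in IRAK4-KD 1 and 2. Another Fas transcript, Fas-204, had 514 counts in the library labelled IRAK4-KD 3, 268 to 964 in the lpr libraries and 0 to 7 in the other 5. This library also had the highest summed level of 9 thalamus and striatum markers, 383 counts per 1000000 of the scaled library (CPM) against 97.2 to 185 in the other 13. The IRAK4 labels could not be checked in this way. The transcript Irak4-201 had 495 to 737 counts in MRL and 453 to 639 in MRL-IRAK4-KD libraries, which overlap. The library MRL-IRAK4-KD 4 stood alone on the first principal component of all genes, at 152.2 against -28.4 to 8.82, and had the highest summed level of 10 choroid plexus markers, 7820 CPM against 68.0 to 1870. It also had 1.40 counts per read listed by the sequencing core, against 1.80 to 2.08 in the other 13 libraries. Its share of counts outside Ensembl genes was the largest, at 0.188%, and its Irak4-202 transcript had 9 counts against 253 to 689. Whether its quality set it apart was not tested. In the comparisons of groups, the main values that rest on these libraries are therefore also given without them. Most of the correlations below use all 14 libraries. Hippocampal neurons were represented in every library by 9 markers at 1550 to 2190 CPM, led by Slc17a7.

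All 10 members were detected in all 14 libraries. Per kilobase of transcript, on a scale of CPM averaged over the 14 libraries, Ptgds stood far above the others at 648, followed by Dcn at 27.1 and Igf2 at 20.5. Slc6a13 (4.43), Slc13a4 (4.27) and Aldh1a2 (3.99) formed the middle of the order, with coefficients of variation between libraries of 41.4%, 44.3% and 41.8%. The order of these 3 neighbours within single libraries was not tested. Col1a2 at 2.56, Lum at 1.91 and Col1a1 at 1.53 came next, and Col3a1 was lowest at 0.454. Between the library with the highest and the one with the lowest level, Lum differed 1.76-fold and Ptgds 6.62-fold, the smallest and largest such folds among the members.

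**Figure D1:**
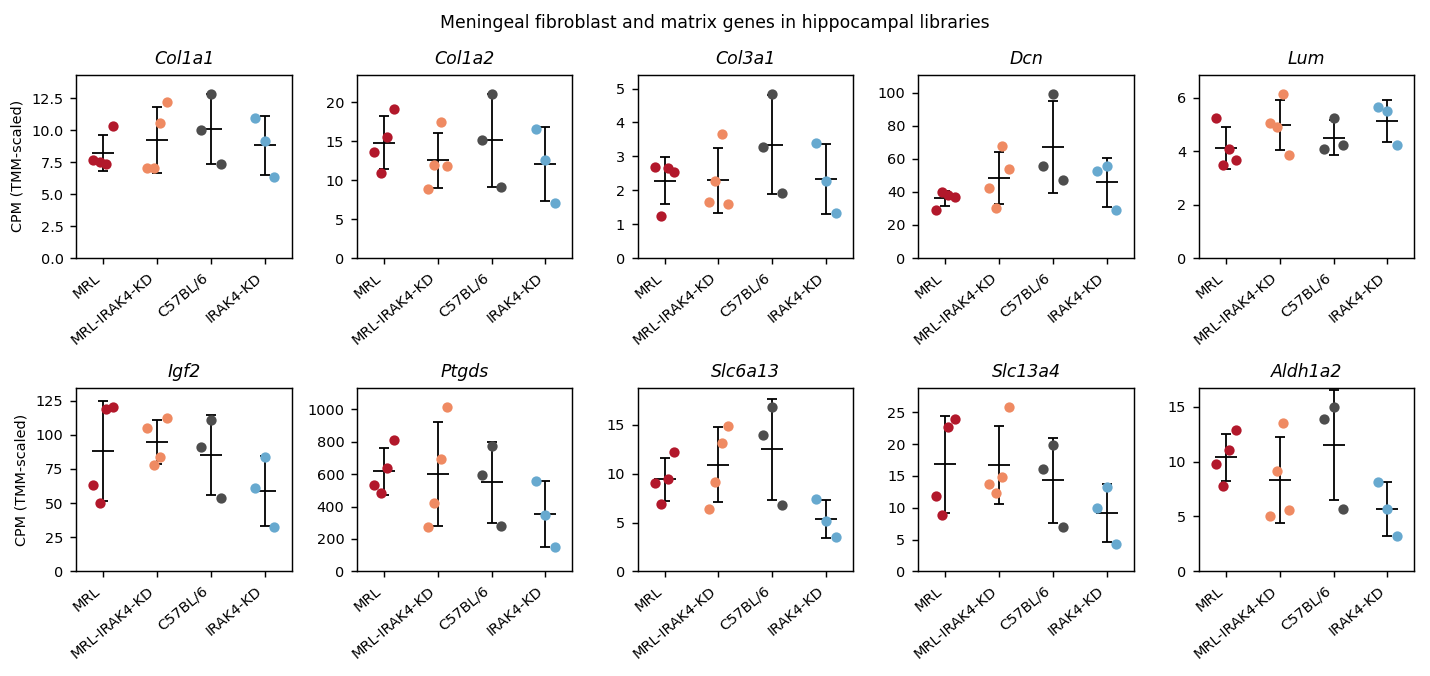
CPM of each of the 10 genes (1 panel each, y axis in TMM-scaled CPM from 0) in the libraries of the 4 groups (x axis). Points are single libraries, and the black marks and bars are the group mean and SD (n = 4, 4, 3 and 3). The groups overlap for nearly every gene, and Dcn in MRL (29.3 to 40.02 CPM) lies below its 3 C57BL/6 libraries (47.0 to 99.0 CPM).

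MRL mice were set beside MRL-IRAK4-KD mice to ask what the IRAK4 mutation changes in lupus-prone animals. None of the 10 members passed the test (adjusted p below 0.05 by edgeR's quasi-likelihood method, with 0.0972% of all 38070 genes called), and none reached an unadjusted p below 0.05, where 11.4% of all genes did. DESeq2 and limma-voom also called 0 of the 10, with 0 and 1 at an unadjusted p below 0.05 (the 1 was Lum, at -0.45 ± 0.13 by limma-voom, adjusted p = 0.128). The median log2 fold change of the members was -0.06 (MRL over MRL-IRAK4-KD), beside 0.00228 over all genes, with 4 members above 0 and 6 below (50.2% of all genes lay above 0), and 0 of the 10 had groups that did not overlap (5.26% of all genes had such groups).

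Col1a1 stood at 7.67, 7.49, 7.38 and 10.4 CPM in MRL mice 1 to 4 and at 7.05, 7.07, 10.6 and 12.2 CPM in MRL-IRAK4-KD mice 1 to 4. In each group, then, some libraries lay near 7 CPM and others above 10. The log2 fold change was -0.16 ± 0.23 (SE), with a 95% interval from -0.66 to 0.33. Col1a2, the partner chain, stood at 13.7, 10.97, 15.5 and 19.2 CPM in MRL and at 8.90, 11.98, 17.5 and 11.8 CPM in MRL-IRAK4-KD mice. The groups overlapped over most of their range, and the log2 fold change of 0.24 ± 0.29 was opposite in sign to that of Col1a1 but within its error. Col3a1 stood at 2.70, 1.25, 2.65 and 2.54 CPM in MRL and at 1.66, 2.26, 3.65 and 1.60 CPM in the MRL-IRAK4-KD libraries, and its log2 fold change was -0.01 ± 0.37.

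Among the proteoglycans, Dcn stood at 29.3, 40.02, 37.9 and 37.0 CPM in MRL and at 42.5, 30.5, 67.5 and 53.6 CPM in MRL-IRAK4-KD mice. Of the MRL-IRAK4-KD libraries, 3 lay above all 4 MRL libraries and 1 lay within them. Its log2 fold change of -0.43 ± 0.28 was the lowest of the members in this comparison, and its 95% interval of -1.02 to 0.17 included 0 (edgeR, adjusted p = 0.512). Lum stood at 5.25, 3.48, 4.08 and 3.66 CPM in MRL and at 5.05, 4.91, 6.14 and 3.84 CPM in the MRL-IRAK4-KD libraries, and its log2 fold change was -0.28 ± 0.18. MRL 1 was the exception among the MRL libraries, above 3 of the 4 MRL-IRAK4-KD libraries, and leaving it out gave -0.42 ± 0.18 (unadjusted p = 0.035). Lum had an unadjusted p below 0.05 in 4 of 24 alternatives, with adjusted p from 0.128 to 0.745.

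Igf2 stood at 63.4, 50.1, 118.6 and 119.9 CPM in MRL and at 104.7, 78.0, 83.8 and 111.9 CPM in MRL-IRAK4-KD mice. The MRL libraries fell into a lower and a higher pair on either side of all 4 MRL-IRAK4-KD libraries, and the log2 fold change was -0.10 ± 0.33. Ptgds stood at 536, 486, 636 and 809 CPM in MRL and at 277, 422, 692 and 1012 CPM in MRL-IRAK4-KD mice. Here the MRL-IRAK4-KD libraries spanned 3.65-fold and enclosed all 4 MRL libraries, and the log2 fold change was 0.04 ± 0.43. Aldh1a2 stood at 9.82, 7.79, 11.1 and 12.9 CPM in MRL and at 5.002, 9.15, 13.5 and 5.60 CPM in the MRL-IRAK4-KD libraries, and its log2 fold change of 0.32 ± 0.37 was the highest of the members in this comparison.

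Of the transporters, Slc6a13 stood at 9.04, 6.91, 9.45 and 12.3 CPM in MRL and at 6.44, 9.12, 13.2 and 14.9 CPM in MRL-IRAK4-KD mice. Slc13a4 stood at 11.8, 8.84, 22.7 and 24.0 CPM in MRL and at 13.8, 12.3, 14.9 and 25.7 CPM in MRL-IRAK4-KD mice. Both overlapped widely, with log2 fold changes of -0.21 ± 0.32 and 0.01 ± 0.41. In 2-sided exact permutation tests on log2(CPM + 0.1), which cannot give a p below 0.0286 with 4 mice against 4, the members' p-values ran from 0.2 for Dcn to 1.0 for Col3a1. Without MRL-IRAK4-KD 4, the fold changes of Ptgds and Slc13a4 were 0.42 ± 0.49 and 0.31 ± 0.48, Lum alone had an unadjusted p below 0.05 (-0.38 ± 0.16, unadjusted p = 0.0328, edgeR, adjusted p = 0.547), and the median over the members was -3.37e-05.

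**Figure D2:**
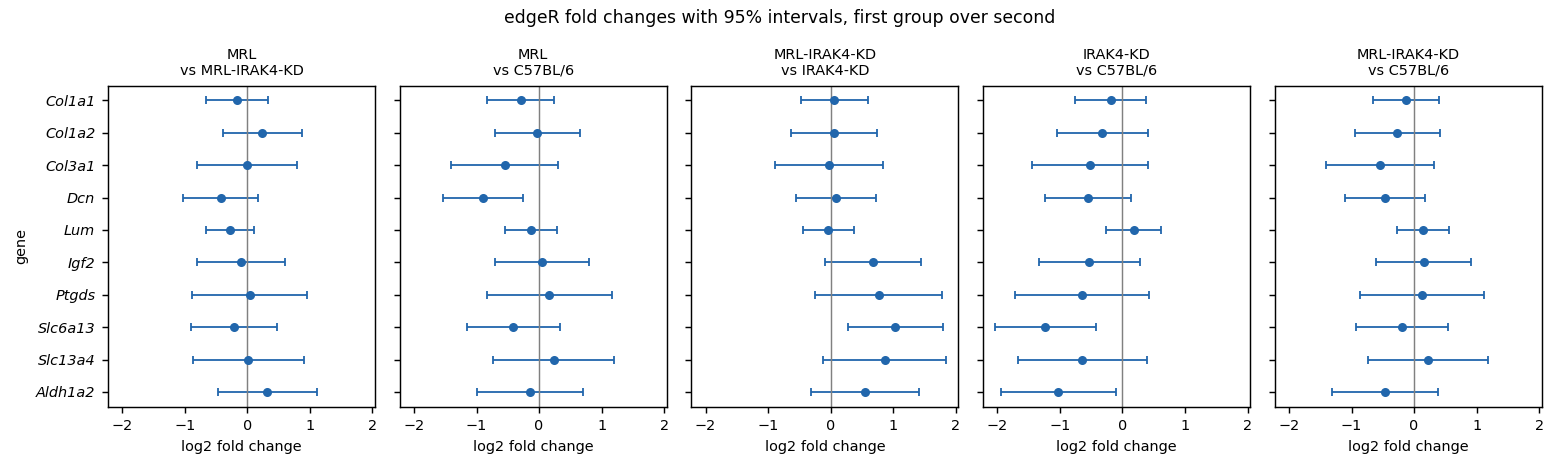
Log2 fold change (x axis, first group over second) of each of the 10 genes (y axis) in the 5 comparisons of groups, 1 panel each. Points are edgeR estimates and bars are 95% intervals. The interval excludes 0 for Dcn in MRL over C57BL/6, for Slc6a13 in MRL-IRAK4-KD over IRAK4-KD and in IRAK4-KD over C57BL/6, and for Aldh1a2 in the last of these, and none of the 4 passed the adjustment over all genes.

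Genes that work with the members were read from 8 lists. None of the 32 other meningeal fibroblast genes, 36 other matrix genes, 30 genes of collagen processing, 17 of TGF-beta signalling, 15 of the IGF axis, 18 of retinoic acid metabolism, 17 of prostaglandin metabolism and 11 related transporters passed the test in this comparison. At an unadjusted p below 0.05, 4 of 32, 3 of 36, 3 of 30, 4 of 17, 2 of 15, 0 of 18, 2 of 17 and 1 of 11 stood out, against 11.4% of all genes. The median log2 fold change was highest for the other meningeal fibroblast genes, at 0.30, with 25 of 32 above 0 (50.2% of all genes), and it was 0.23 without MRL-IRAK4-KD 4. It ran from 0.17 without MRL-IRAK4-KD 1 to 0.41 without MRL-IRAK4-KD 3. The order of the lists also changed. The TGF-beta list had the higher median when MRL 1, MRL 4, MRL-IRAK4-KD 1 or MRL-IRAK4-KD 2 was left out (0.263 against 0.174 without MRL-IRAK4-KD 1). Endothelial markers (126 to 257 CPM in MRL and 88.9 to 117 in MRL-IRAK4-KD mice, median log2 fold change 0.62) and mural markers (168 to 183 and 89.1 to 158 CPM, median 0.30) were also higher on balance in MRL. Medians of the other marker lists were 1.68 for blood, 1.16 for the pituitary and 0.33 for border macrophages. They were -0.0884 for thalamus and striatum, -0.121 for oligodendrocytes, -0.365 for hippocampal neurons and -0.644 for the choroid plexus. The choroid plexus median was 0.0167 without MRL-IRAK4-KD 4, and the pituitary median was -0.386 without MRL 3. The part of these tissues and cell types in the median of the meningeal list was not tested.

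From each of the 8 lists, the 2 genes with the smallest p-values in this comparison are named here, whatever their adjusted p. Fn1, which encodes fibronectin, stood at 39.5 to 86.5 CPM in MRL and 26.6 to 42.9 CPM in MRL-IRAK4-KD mice (log2 fold change 0.71 ± 0.23, edgeR, adjusted p = 0.405). Tgfb2, a ligand of the TGF-beta family, stood at 33.0 to 60.6 CPM in MRL and 65.1 to 82.4 CPM in MRL-IRAK4-KD mice (log2 fold change -0.83 ± 0.16, edgeR, adjusted p = 0.118). Igfbp7, which binds insulin-like growth factors, stood at 11.6 to 17.8 CPM in MRL and 7.72 to 9.90 CPM in MRL-IRAK4-KD mice (log2 fold change 0.63 ± 0.16, edgeR, adjusted p = 0.335). Of the remaining genes named by this rule, the log2 fold changes were 0.61 for Fbln2, 0.48 for Lama1, -0.47 for Col15a1, -0.91 for Loxl1, -0.80 for Adamts14, 1.81 for Ccn1 and -1.13 for H19. They were 0.51 for Aldh1a3, -0.28 for Stra6, -0.46 for Slco2a1, 1.01 for Ptger3, 0.51 for Slc13a5 and 0.26 for Slc6a6, and none of these 13 passed the test. Ccn1 spread from 3.51 to 22.2 CPM in MRL, against 2.05 to 3.22 CPM in MRL-IRAK4-KD mice. Loxl1 stood at 2.07 to 2.96 CPM in MRL and spread from 2.84 to 9.29 CPM in MRL-IRAK4-KD mice. H19 was low, at 0.155 to 0.254 CPM in MRL and 0.225 to 0.914 CPM in MRL-IRAK4-KD mice.

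MRL mice were next set beside mice that carried neither mutation. None of the 10 members was called, as was the case for 0% of all 38070 genes by edgeR, where 2112 genes had an unadjusted p below 0.05. DESeq2 called 197 genes and limma-voom 67, none of them a member. Dcn alone among the members had an unadjusted p below 0.05 (5.55% of all genes did). It stood at 55.4, 99.0 and 47.0 CPM in C57BL/6 mice 1 to 3, against 29.3 to 40.02 CPM in the 4 MRL mice listed above, so that every C57BL/6 library was above every MRL library. Groups lay apart for 1 of the 10 members and for 9.63% of all genes, and with MRL as the lower group for 5.16% of all genes. The log2 fold change was -0.90 ± 0.30, with a 95% interval from -1.53 to -0.26 (edgeR, adjusted p = 0.746, unadjusted p = 0.00919). Without C57BL/6 2, the library with the highest level, it was -0.49 ± 0.29 (unadjusted p = 0.113), and without MRL-IRAK4-KD 4 and the library labelled IRAK4-KD 3 together, which lie outside this comparison but share its model, it was -0.90 ± 0.30.

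The other 9 members gave log2 fold changes between -0.55 (Col3a1) and 0.24 (Slc13a4) in MRL over C57BL/6, and their groups overlapped. Of all 10, 3 lay above 0, as did 48.1% of all genes. In C57BL/6 mice 1 to 3, Col3a1 stood at 3.29, 4.83 and 1.92 CPM, Col1a1 at 10.1, 12.8 and 7.37 CPM, and Col1a2 at 15.1, 21.02 and 9.18 CPM. The same order of the 3 mice, with C57BL/6 2 highest and C57BL/6 3 lowest, held for all 3 collagens. Lum, at 4.07, 5.26 and 4.22 CPM, did not follow that order to the end. Leaving out C57BL/6 2 moved the median of the members from -0.14 to 0.05.

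IRAK4-KD mice were set beside C57BL/6 mice. By the labels these groups differ in the IRAK4 mutation, and they also differ in source. However, 1 of the 3 IRAK4-KD libraries, the library labelled IRAK4-KD 3, went against its label in Fas. No member was called (0.147% of all genes were), and 2 had an unadjusted p below 0.05 (3.8% of all genes). Slc6a13 stood at 7.37 and 5.12 CPM in IRAK4-KD 1 and 2 and 3.496 CPM in the library labelled IRAK4-KD 3, against 13.9, 16.8 and 6.80 CPM in C57BL/6 mice. IRAK4-KD 1 lay above C57BL/6 3, so the groups overlapped by that pair. The log2 fold change was -1.23 ± 0.37, with a 95% interval from -2.04 to -0.43 (edgeR, adjusted p = 0.91, unadjusted p = 0.00548), and it was -1.002 ± 0.41 without the library labelled IRAK4-KD 3 (unadjusted p = 0.0303) and -0.95 ± 0.40 without C57BL/6 2 (unadjusted p = 0.0327).

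Aldh1a2 stood at 8.15 and 5.64 CPM in IRAK4-KD 1 and 2 and 3.22 CPM in the library labelled IRAK4-KD 3, against 13.9, 14.9 and 5.71 CPM in C57BL/6 mice. As for Slc6a13, C57BL/6 3 lay among the IRAK4-KD libraries. The log2 fold change was -1.02 ± 0.43 (edgeR, adjusted p = 1.0, unadjusted p = 0.0321), and it was -0.74 ± 0.46 without the library labelled IRAK4-KD 3 (unadjusted p = 0.13) and -0.78 ± 0.48 without C57BL/6 2 (unadjusted p = 0.127). Of the 10 members, 9 had a log2 fold change below 0 and Lum, at 5.64 and 5.50 CPM in IRAK4-KD 1 and 2 and 4.22 CPM in the library labelled IRAK4-KD 3, was the exception at 0.18 ± 0.21. Above 0 lay 47% of all genes. The median of the members was -0.54, beside -0.00787 over all genes. It was -0.22 without C57BL/6 2 and -0.26 without the library labelled IRAK4-KD 3, in which 8 of the 10 members had their lowest level of the 14 libraries. In 0 of 10 members did the groups lie apart (11.2% of all genes).

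MRL-IRAK4-KD mice were set beside IRAK4-KD mice, which by the labels differ in lpr, with the same library labelled IRAK4-KD 3 going against its label. No member was called (0.0735% of all genes were), and Slc6a13 alone had an unadjusted p below 0.05 (8.63% of all genes did). Its log2 fold change was 1.03 ± 0.35, with a 95% interval from 0.27 to 1.80 (edgeR, adjusted p = 0.553, unadjusted p = 0.0114). This was 0.81 ± 0.39 without the library labelled IRAK4-KD 3 (unadjusted p = 0.0607), 0.85 ± 0.38 without MRL-IRAK4-KD 4 (unadjusted p = 0.0446) and 0.61 ± 0.40 without both (unadjusted p = 0.158). Slc13a4, at 9.96 and 13.2 CPM in IRAK4-KD 1 and 2 and 4.30 CPM in the library labelled IRAK4-KD 3, had a log2 fold change of 0.87 ± 0.46. Ptgds, at 559, 345 and 153 CPM in the same order, had 0.77 ± 0.47, and Igf2, at 60.8, 83.9 and 32.7 CPM, had 0.68 ± 0.36. Without both libraries these 3 values were 0.24, 0.03 and 0.29. The median of the members was 0.32 with all libraries, where 8 of 10 lay above 0 (49.4% of all genes). It was 0.07 without the library labelled IRAK4-KD 3, 0.26 without MRL-IRAK4-KD 4 and -0.01 without both, and 0 of 10 members had groups that lay apart (8.74% of all genes).

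In MRL-IRAK4-KD over C57BL/6 mice, 0 of the 10 members were called (0.0972% of all genes) and 0 had an unadjusted p below 0.05 (8.62%). The log2 fold changes ran from -0.54 for Col3a1 to 0.22 for Slc13a4, with a median of -0.16 and 4 of 10 above 0 (47.6% of all genes), and 0 of 10 members had groups that lay apart (8.71% of all genes). The median was -0.27 without MRL-IRAK4-KD 4 and 0.08 without C57BL/6 2. The interaction, which by the labels asks whether the IRAK4 mutation had a different effect with lpr than without it, called 0 members (0.00263% of all genes). It is the log2 fold change of MRL over MRL-IRAK4-KD added to that of IRAK4-KD over C57BL/6. All 10 members had an interaction below 0 (49.7% of all genes lay above 0), with a median of -0.62, and Slc6a13 (-1.44 ± 0.49, unadjusted p = 0.0108) and Dcn (-0.98 ± 0.42, unadjusted p = 0.0357) had unadjusted p-values below 0.05 (edgeR, adjusted p = 0.914 for both, with 4.17% of all genes at an unadjusted p below 0.05). Without the library labelled IRAK4-KD 3 the median was -0.27, with 8 members below 0, without C57BL/6 2 it was also -0.27, and without both that library and MRL-IRAK4-KD 4 it was -0.16, with 7 below 0. Without the library labelled IRAK4-KD 3 the interaction was -1.22 for Slc6a13 (unadjusted p = 0.0339) and -0.74 for Dcn (unadjusted p = 0.0991), and without both it was -1.03 for Slc6a13 (unadjusted p = 0.0766). Dcn was at -0.57 without C57BL/6 2 (unadjusted p = 0.168) and at -0.93 without MRL-IRAK4-KD 4 (unadjusted p = 0.0876), and its unadjusted p was below 0.05 in 14 of 23 alternatives.

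The members varied together between single libraries, and the groups overlapped. On the geometric mean over the 10 genes of the level relative to the median library, C57BL/6 2 stood at 1.59 and the library labelled IRAK4-KD 3 at 0.487, the ends of the order. Within C57BL/6 the range was 0.726 to 1.59, within MRL 0.763 to 1.25, within MRL-IRAK4-KD 0.804 to 1.32 and within IRAK4-KD 0.487 to 1.03. C57BL/6 2 was the highest library for 6 of the 10 members. The exceptions were Igf2 (highest in MRL 4), Lum (highest in MRL-IRAK4-KD 3), and Ptgds and Slc13a4 (both highest in MRL-IRAK4-KD 4).

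**Figure D3:**
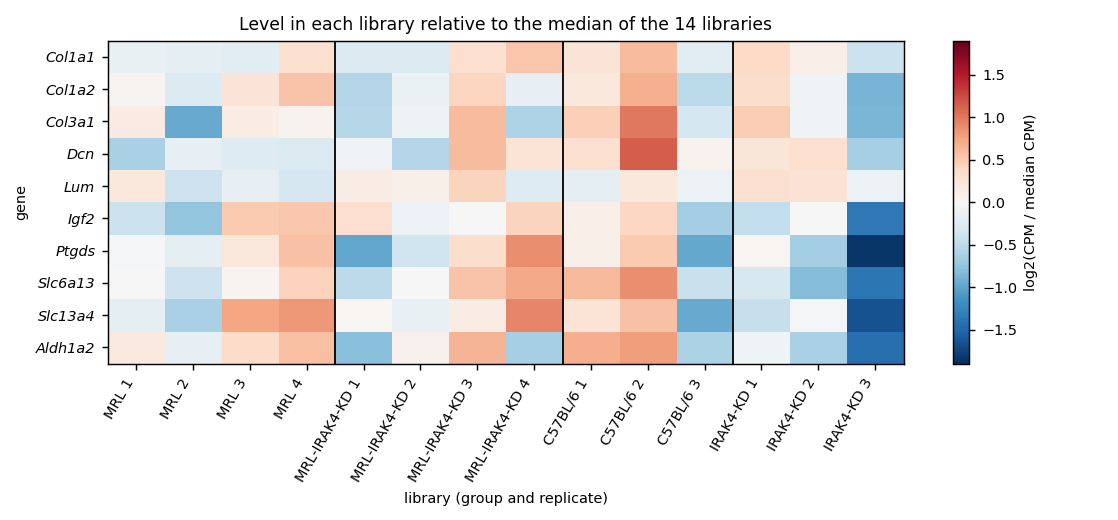
Level of each of the 10 genes (rows) in each of the 14 libraries (columns, black lines between groups) as log2 of CPM over the median CPM of the 14 libraries, red above and blue below. C57BL/6 2 is highest for 6 genes, the library labelled IRAK4-KD 3 is lowest for 8 genes, and MRL-IRAK4-KD 4 is high for Ptgds and Slc13a4 but low for Col3a1 and Aldh1a2.

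With the group means removed, the 45 pairs of members had Pearson correlations of log2(CPM + 0.1) over the 14 libraries from 0.118 to 0.967, with a median of 0.655. None of the pairs was below 0, and 38 were above 0.5. These are descriptions over 14 points that share their libraries and their scaling. The closest pairs were Ptgds with Slc6a13 (0.967), Igf2 with Slc13a4 (0.959), Col1a1 with Ptgds (0.952) and Col1a2 with Aldh1a2 (0.935). Lum was the member least like the others, with a median correlation of 0.227, and Col1a2 was the one most like them, at 0.823.

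Outside the members, the genes with the pattern most like their mean, among 16104 genes with a mean of at least 1 CPM, were Anpep (r = 0.950), Aebp1 (0.941), Foxc2 (0.938), Pear1 (0.933) and Fmod (0.921), followed by Spp1 (0.919), Slc13a3 (0.914), Slc22a6 (0.910), Serping1 (0.906) and Emilin1 (0.906). Anpep encodes an aminopeptidase of the cell surface, Foxc2 a transcription factor of mesenchyme, and Fmod (fibromodulin) another small leucine-rich proteoglycan. Foxc2 ranged from 0.418 to 2.19 CPM over the 14 libraries and Fmod from 4.08 to 30.7 CPM. Foxc2, Slc22a6 and Serping1 belonged to the list of other meningeal fibroblast genes, Fmod to that of other matrix genes and Slc13a3 to that of related transporters. Without MRL-IRAK4-KD 4, 6 of these 10 genes were again among the 10 most alike.

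The mean of the 32 other meningeal fibroblast genes moved with the members between libraries, with r = 0.939 and Spearman's rho = 0.916 after removal of group means, and r = 0.888 without the 2 libraries farthest from the median. The summed level of this list, led by Pdgfra, which oligodendrocyte precursors also express, was 287 to 366 CPM in MRL, 247 to 317 in MRL-IRAK4-KD, 241 to 350 in C57BL/6 and 214 to 280 in IRAK4-KD mice, with none of its 32 genes at 0. Markers of border macrophages, which share the meninges with the fibroblasts, gave r = 0.916 (rho = 0.868, and 0.866 without the 2 farthest libraries). Their 8 genes, led by Stab1, summed to 23.0 to 37.6 CPM in MRL, 20.4 to 29.9 in MRL-IRAK4-KD, 17.4 to 26.6 in C57BL/6 and 14.4 to 20.7 in IRAK4-KD mice, the last of these minima in the library labelled IRAK4-KD 3. All 8 were detected, and the part of dissected membrane in the members' differences was not tested.

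**Figure D4:**
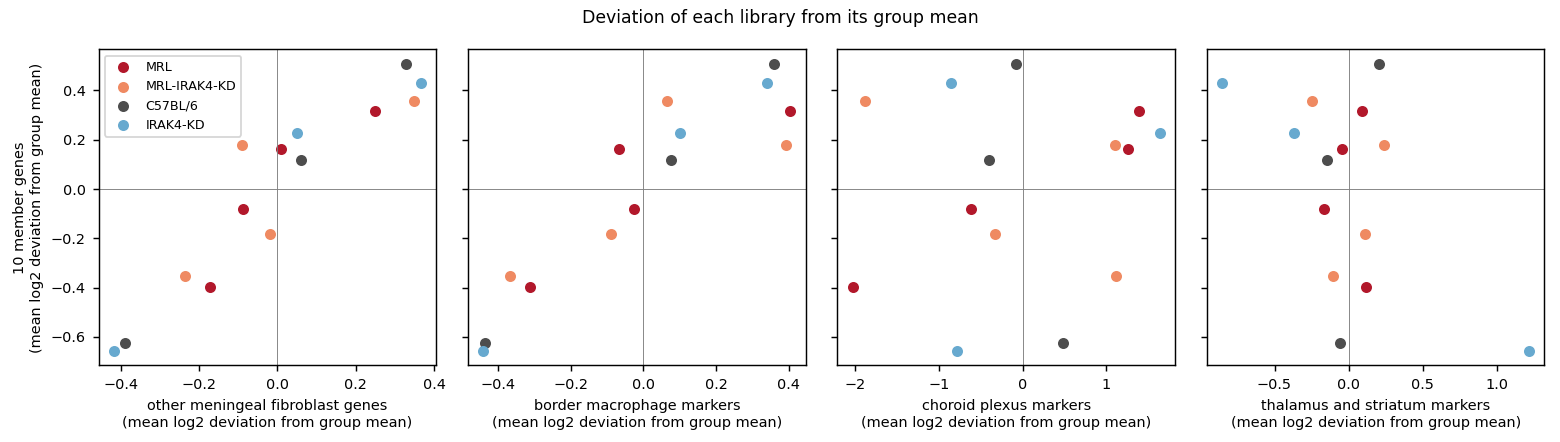
Mean log2 deviation from the group mean of the 10 genes (y axis) against that of 4 marker lists (x axes, 1 panel each), 1 point per library, coloured by group. The points follow a line for other meningeal fibroblast genes (r = 0.939) and border macrophage markers (r = 0.916), and scatter for choroid plexus markers (r = 0.136); for thalamus and striatum markers r = -0.518 falls to 0.0133 without the 2 farthest libraries.

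Markers of the choroid plexus, the tissue in the ventricles that secretes cerebrospinal fluid, did not follow the members as a group. For them r was 0.136 (rho = 0.143), and -0.0815 without the 2 farthest libraries. Of the members, 2 had a higher correlation with these markers. The correlation of the list with Igf2 was 0.678 and with Slc13a4 0.557, against -0.221 to 0.0681 for the other 8 members. Igf2 and Slc13a4 also had the highest correlations of the members with pituitary markers, 0.585 and 0.58 against -0.251 to 0.293 for the other 8. With the genes of collagen processing they had 0.822 and 0.844, against -0.0565 to 0.75. Border macrophage markers did not set these 2 members apart. Their correlations there were 0.712 and 0.849, below those of Slc6a13 (0.96), Ptgds (0.949) and Col1a1 (0.941). These values for single members were not recomputed with libraries left out. The 10 markers, led by Ttr, summed to 68.0 to 1680 CPM in MRL, 155 to 7820 in MRL-IRAK4-KD, 117 to 441 in C57BL/6 and 164 to 1460 in IRAK4-KD mice, and none was at 0. The share of choroid plexus in the levels of Igf2 and Slc13a4 was not tested. Thalamus and striatum markers, led by Ppp1r1b, gave r = -0.518 (rho = -0.336), which was 0.0133 without the 2 farthest libraries.

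For the other markers the correlation with the members was 0.561 for mural cells (9 genes, led by Rgs5), 0.463 for blood (5, led by Hbb-bs), 0.311 for the pituitary (10, led by Prl), 0.237 for endothelium (7, led by Flt1), -0.12 for hippocampal neurons and -0.263 for oligodendrocytes (8, led by Mbp). Among the lists of related genes it was 0.685 for retinoic acid metabolism, 0.684 for other matrix genes, 0.677 for collagen processing, 0.623 for the IGF axis, 0.425 for related transporters, 0.414 for prostaglandin metabolism and 0.137 for TGF-beta signalling. Leaving out the 2 libraries farthest from each list's median gave 0.303 for mural cells, 0.542 for blood and 0.239 for the pituitary. It gave 0.213 for endothelium, -0.35 for hippocampal neurons and -0.176 for oligodendrocytes. Among related genes it gave 0.643 for retinoic acid metabolism, 0.767 for other matrix genes and 0.56 for collagen processing. The IGF axis had 0.54, related transporters 0.776, prostaglandin metabolism 0.757 and TGF-beta signalling 0.318. No gene of these lists was at 0 counts in all libraries. Endothelial markers summed to 126 to 257 CPM in MRL, 88.9 to 117 in MRL-IRAK4-KD, 87.4 to 103 in C57BL/6 and 59.9 to 71.4 in IRAK4-KD mice. Of all genes of the lists, Notch3, a receptor of mural cells chosen here after its value was seen, was the only one called in any comparison. It stood at 8.93 to 9.47 CPM in MRL and 5.87 to 6.19 CPM in MRL-IRAK4-KD mice (log2 fold change 0.61 ± 0.10, edgeR, adjusted p = 0.0371). Without MRL-IRAK4-KD 4, whose mural markers summed to 89.1 CPM against 117 to 183 in the other 13 libraries, the log2 fold change was 0.63 ± 0.09 (edgeR, adjusted p = 0.00899). It was called in 11 of 24 alternatives, with log2 fold changes from 0.61 to 0.63. The call was lost when any 1 of the 4 MRL libraries, MRL-IRAK4-KD 1, 2 or 3, C57BL/6 1 or any 1 of the 3 IRAK4-KD libraries, the library labelled IRAK4-KD 3 included, was left out (edgeR, adjusted p 0.0583 to 0.15).

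Ratios between members of the same class were also set out by library. Col1a1 over Col1a2, the 2 chains of type I collagen, was 1.04 in MRL-IRAK4-KD 4 and 0.477 to 0.895 in the other 13 libraries. The 4 MRL libraries had 0.477 to 0.683. Dcn over Lum ranged from 5.58 in MRL 1 to 18.8 in C57BL/6 2, and was 11.1 to 18.8 in C57BL/6, 5.58 to 11.5 in MRL, 6.21 to 13.9 in MRL-IRAK4-KD and 6.83 to 10.1 in IRAK4-KD mice.

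The counts of most members came from a single annotated transcript. Col1a1-201 took 99.9% of the gene's counts over all libraries, Col3a1-201 99.8%, Col1a2-201 99.1%, Slc13a4-201 99.5%, Slc6a13-201 95.5% and Dcn-201 93.3%, and Lum-201 and Aldh1a2-201 took all of theirs. Igf2 was divided between Igf2-201 (63.6%) and Igf2-205 (33.2%), and the share of Igf2-201 ranged from 48.6% in IRAK4-KD 1 to 77.6% in IRAK4-KD 2. Igf2 overlaps Igf2os on the opposite strand (0.177 to 0.572 CPM) and the protein-coding model Gm49394 on the same strand (0 to 0.0591 CPM), and whether counting used strand is not given in the sources used here. Ptgds-202 took 5.71% of the Ptgds counts in C57BL/6 1 and 57.1% to 69.2% in the other 13 libraries, while Ptgds-201 took 31.6% in C57BL/6 1 and at most 7.25% elsewhere. The total of Ptgds in that library, 594 CPM, lay within the range of the others.

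**Figure D5:**
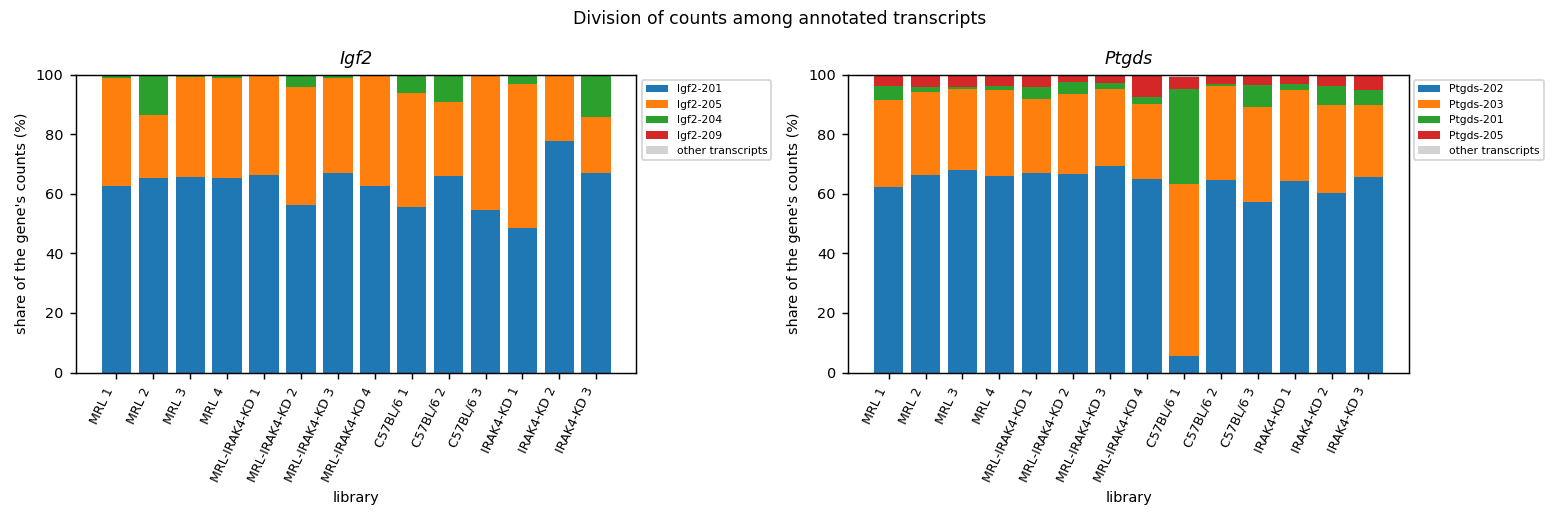
Stacked bars of the share of the gene's counts (y axis, %) assigned to each annotated transcript of Igf2 (left) and Ptgds (right) in each of the 14 libraries (x axis). Igf2-201 leads in every library (48.6% to 77.6%), and Ptgds-202 leads in all but C57BL/6 1, where it takes 5.71%.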

How the data were processed

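Poly(A) RNA of the hippocampus of 14 mice was sequenced by the study. Alignment to mm10 by the authors used HISAT2 2.1.0 and SAMtools 1.9. The deposited counts per gene and per transcript are whole numbers from StringTie 2.1.0, not normalized (versions from the submitters' processing notes). StringTie derives them from coverage, and totals came to 1.40 to 2.08 counts per read of the core's sheet, so counts are not molecules. On library preparation the sources differ: SMART-seq with NexteraXT in the methods, a KAPA kit in the labels. The annotation is not given in the sources used here; identifiers and versions match GENCODE M21, whose coordinates are mm10. Of 81881 rows, 26345 are not Ensembl genes and were left out (at most 0.188% of a library's counts).

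Groups came from the labels, and 1 library stands for 1 mouse. The members and lists were chosen with earlier results of these data known. The model was fitted to genes with a summed count of 10 or more, by edgeR 4.0.16 under R 4.3.3 (quasi-likelihood, robust, TMM, 1 model of the 4 groups, Benjamini-Hochberg over 38070 genes). CPM are counts per 1000000 of the TMM-scaled library, and errors of fold changes are standard errors. Levels per kilobase used transcript lengths weighted by counts. For MRL against MRL-IRAK4-KD mice, an exact permutation test (2-sided, on log2(CPM + 0.1)) was run for each member. Correlations are Pearson's over 14 libraries after removal of group means. Besides the 10 members, the text names the 2 genes with the smallest p in MRL against MRL-IRAK4-KD mice from each of 8 lists (and any called in MRL over MRL-IRAK4-KD, MRL over C57BL/6 or IRAK4-KD over C57BL/6, of which there were none), the most abundant gene of each of 9 marker lists, and the 10 genes most alike. The scripts were tested on simulated counts. No library pair of a group agreed within sampling noise. As alternatives, the fit was repeated with scaling by RLE or by library size alone, no filter, filterByExpr, the replicate number as a block, transcript counts summed, DESeq2 1.42.0, limma-voom with quality weights (limma 3.58.1), only the 2 groups compared, a pseudocount of 1, correlations without centring, each library left out, and, chosen after seeing the data, MRL-IRAK4-KD 4 and the library labelled IRAK4-KD 3 left out together. For Notch3 and the medians of the lists, all alternatives were chosen after seeing the data. The summed transcript counts equalled the gene counts for every gene. That alternative therefore repeated the main fit and could not differ from it, in each count of alternatives given here. Plots used matplotlib 3.10.9 (Python 3.11.15).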

Additional observations from a re-analysis of the deposited data

Results flagged for a closer look

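Among the 20 sets of 4 libraries (10 members in MRL and in MRL-IRAK4-KD mice), 2 held a library far from the other 3 of its group. Far was judged by the gap as a share of the group's range. Chance gives about 1 in 20 for independent sets. These sets share their libraries and the members varied together, so the number found cannot be set against that share. Col1a1 stood at 10.4 CPM in MRL 4, against 7.38 to 7.67 CPM in the other 3 MRL libraries, a gap that makes up 0.901 of the group's range. Col3a1 stood at 1.25 CPM in MRL 2, against 2.54 to 2.70 CPM in the other 3, a gap of 0.888 of the range. MRL 4 also had the highest summed level of border macrophage markers of the 14 libraries (37.6 CPM), and MRL 2 the lowest of choroid plexus markers (68.0 CPM). With group means removed, Col1a1 had a correlation of 0.941 with border macrophage markers. Col3a1 had one of -0.0711 with choroid plexus markers and of 0.90 with the other meningeal fibroblast genes. The part of these markers in the 2 values was not tested.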

How the results depend on the processing

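In all 6 comparisons, the number of members called was 0 under each of 24 alternatives (23 for the interaction), from 0 to 0 with each library left out in turn. The alternative with transcript counts summed is among these and repeats the main fit, since the counts were the same. Of 1430 member fold changes recomputed, 81 changed sign and 13 moved by more than their standard error. Slc6a13 in IRAK4-KD over C57BL/6 mice ran from -1.54 to -0.95 and had an unadjusted p below 0.05 in 24 of 24 alternatives, with adjusted p from 0.143 to 1.0. Dcn in MRL over C57BL/6 mice ran from -1.09 to -0.49, with an unadjusted p below 0.05 in 23 of 24 (adjusted p 0.221 to 1.0). Over all genes, calls ranged from 18 to 395 in MRL over MRL-IRAK4-KD, 0 to 197 in MRL over C57BL/6, 6 to 283 in MRL-IRAK4-KD over IRAK4-KD, 33 to 166 in IRAK4-KD over C57BL/6, 13 to 174 in MRL-IRAK4-KD over C57BL/6 and 1 to 59 in the interaction, the maxima all by DESeq2; the cause was not tested. Without centring on group means, 5 of the 10 genes most alike were shared. Replicate numbers did not pair the samples (19 same-numbered pairs, r from -0.251 to 0.375, 4 over 0.1, and 4 of 14 libraries closest to their own number), and with the replicate number as a block 0 members were called in each comparison and 34, 0, 23, 48, 26 and 2 genes over all, while Notch3 in MRL over MRL-IRAK4-KD mice had an adjusted p of 0.102 with the block and 0.426 with only the 2 groups fitted. The exact tests at a pseudocount of 1 gave no p below 0.05. The 95% interval of Ptgds in MRL over MRL-IRAK4-KD mice ran from -0.88 to 0.96, although no library had fewer than 497 counts for any member.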
